A study of Mus musculus with 8 samples.

Results

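The sequences described here are the small RNAs of mouse testis that were 25, 26 or 27 nt long, mapped to 1 position and carried no annotation. They were taken from the deposited list by a blank annotation, a map number of 1 and their length, and no measured level entered the choice. There were 1008285 of them, called the members below, among 6246223 distinct sequences, 16.1% of the list and 31.98% of its unannotated sequences. Lengths of 25, 26 and 27 nt made up 24.5%, 37.2% and 38.3% of them. At the borders of the size window, 157671 unannotated unique sequences had 24 nt and 295604 had 28 nt.

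The list pools 8 libraries of size-selected RNA (labelled 19 to 33 nt) from testes of Tdrd6-KO and Tdrd1-KO mice, 1 library per group. Tdrd6-KO testes were taken at 18 days, at 25 days and at 6 weeks of age, and Tdrd1-KO testes from embryos of 18.5 days post coitum. Each stage gave a heterozygous (hetero) and a homozygous (homo) library, so no library of unmutated animals is among them. The sources used here state neither the strain, nor the kind of mutation, nor how many animals a library holds. No line of the list names a library or holds a read number, so genotypes and ages were not compared, the depth is unknown and the tissue could not be checked by marker levels. Every value below counts distinct sequences or their ends. Shares carry an exact 95% Clopper-Pearson interval, for counting error only. Overlapping sequences are not independent, and no test was run.

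Piwi proteins are germline Argonautes that carry piRNAs, which are cut from long single-stranded precursors and mostly begin with uridine. In mouse testis the shorter piRNAs of 25 to 27 nt are the size reported for MILI (PIWIL2), and the longer ones, around 29 to 31 nt, are usually linked to MIWI (PIWIL1). After the 5' end has been set, the 3' end is trimmed to the length that the Piwi protein protects, so that 1 precursor site can give RNAs of several lengths. Tdrd1 and Tdrd6 encode Tudor-domain proteins that bind methylated arginines of Piwi proteins. Nothing in the list says which protein a sequence was bound to. T in the sequences stands for U in the RNA.

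The first set of sequences shows what a shared 5' end looks like. In the richest locus described below, on chromosome 17, the site shown lies in an exon of the long noncoding RNA gene Gm49793 (chr17:27309527-27309557, minus strand, GRCm38) and had sequences of all 7 lengths from 25 to 31 nt. Those of the compared size classes are printed, without the 28 nt sequence. Capitals mark the bases after the 20 nt that define the 5' end.
Gm49793, 25 nt: ctggatgatgtataagtgtcCTCTC
Gm49793, 26 nt: ctggatgatgtataagtgtcCTCTCT
Gm49793, 27 nt: ctggatgatgtataagtgtcCTCTCTA
Gm49793, 29 nt: ctggatgatgtataagtgtcCTCTCTACC
Gm49793, 30 nt: ctggatgatgtataagtgtcCTCTCTACCA
Gm49793, 31 nt: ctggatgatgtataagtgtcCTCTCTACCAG

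The next sites, from exons of Gm10619 (chr7:73782017-73782047, minus strand) and 1700001L05Rik (chr15:83354002-83354032, minus strand), also had all 7 lengths, and the shortest and the longest are shown. Unlike the site in Gm49793, both begin with T. Each of the 3 sites is the one with the lowest coordinate among those with as many lengths, of which there were 633, 706 and 184 in the 3 loci.
Gm10619, 25 nt: tggtagatatgtagaaaattAAAAT
Gm10619, 31 nt: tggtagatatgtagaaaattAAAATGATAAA
1700001L05Rik, 25 nt: taggatgtgggacactgaaaGACTG
1700001L05Rik, 31 nt: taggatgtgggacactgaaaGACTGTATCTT

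T was the first base in 68.6% (68.5 to 68.7) of the 25 to 27 nt sequences, and A, C and G in 12.7%, 9.42% and 9.24%. The share with T first was 64.7% at 25 nt, 69.4% at 26 nt and 70.3% at 27 nt. Unannotated unique sequences of 29 to 31 nt had 72.3% and multi-mapping unannotated sequences of 25 to 27 nt 68.6%. Sequences of 25 to 27 nt annotated to mRNAs, also unique, stood higher at 78.9%. The preference of the first base was thus shared with all 3 of these groups and strongest in the mRNA group.

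Beyond the first base, positions 2 and 5 departed most from the rest of the sequence. At position 2, G had 32.4% and A 32.1% while C had 15.1%, its lowest share from position 2 to 25. At position 5, A reached 34.2% (34.1 to 34.3), its highest share beyond the first base, against 29.03% at position 4 and 28.1% at position 6, and C was at 16.7%. From position 12 to 25 each base stayed within a few points, A between 23.4% and 26.6% and T between 24.6% and 27.6%. Position 5 was rich in A whatever came first, with 35.1% after T, 35.1% after A, 30.4% after C and 30.6% after G. The other groups had it as well, with 34.4% at 29 to 31 nt and 34.9% in the mRNA group. At position 2 the groups lay further apart, since G had 26.96% at 29 to 31 nt and 40.2% in the mRNA group. Among the members, G at position 2 went with the first base, with 38.7% after T, 30.8% after A, 15.1% after G and 5.59% after C. A was more frequent than G there after A (35.6%), C (42.9%) and G (48.1%).

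**Figure D1:**
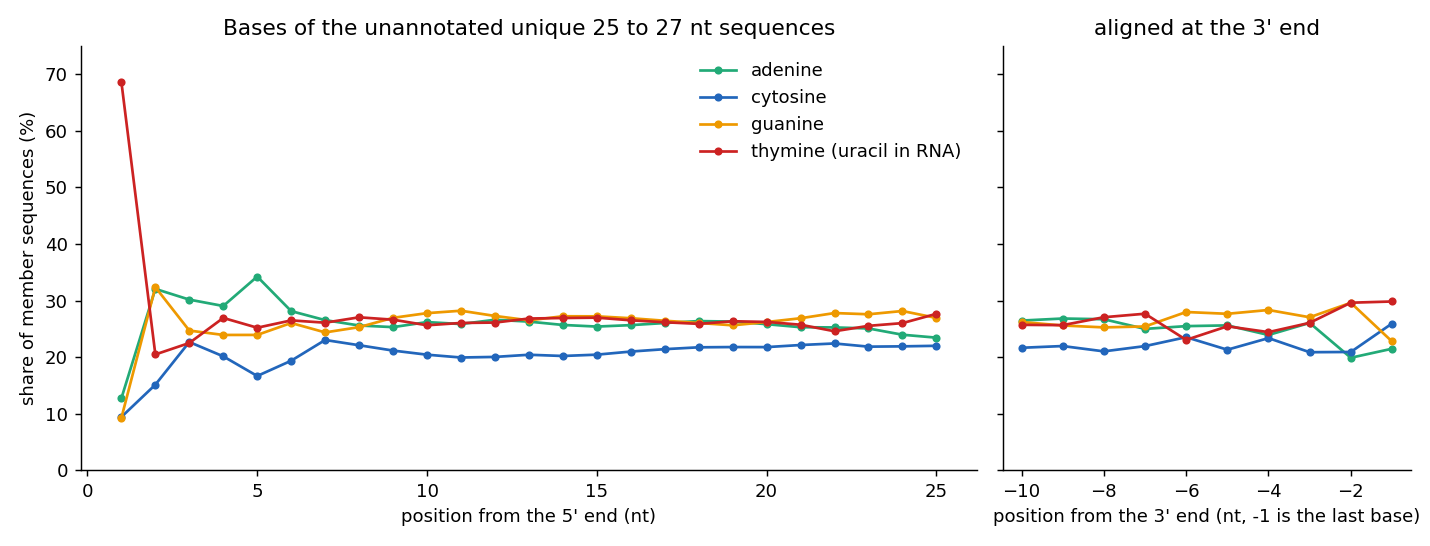
Share of each base (y axis, %) at each position of the 1008285 unannotated unique 25 to 27 nt sequences, counted from the 5' end (left) and from the 3' end (right, -1 is the last base). Thymine stands at 68.6% at position 1, adenine rises to 34.2% at position 5, and the last base is thymine in 29.8%.

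A at position 10 is the base left opposite a first U when sense and antisense transcripts cut each other in turn (the ping-pong cycle). Over all members its share was close to its neighbours, 26.2% against 25.3% at position 9 and 25.8% at position 11. By length it was 24.1% at 25 nt, 25.4% at 26 nt and 28.3% at 27 nt, and position 9 rose likewise, with 23.6%, 25.1% and 26.6%. Position 11 had 25.3%, 25.3% and 26.7%, so position 10 stood above both neighbours at 27 nt but below position 11 at 25 nt. In the 29 to 31 nt sequences A at position 10 had 31.2%, against 26.6% at position 9 and 28.7% at position 11. Sequences that did not begin with T had A at position 10 in 28.2% (28.01 to 28.32), and those that did in 25.3% (25.2 to 25.4). The gap was wider at 29 to 31 nt, where the shares were 36.1% and 29.4%.

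The 3' ends had weaker preferences. The last base was T in 29.8%, C in 25.9%, G in 22.8% and A in 21.5%, and the base before it was T or G in 29.6% each and A in 19.9%. T as last base rose from 28.6% at 25 nt to 31.1% at 27 nt and was 33.5% at 29 to 31 nt. For sequences that could be placed on a transcript (below), the base that followed the 3' end in the transcript was G in 27.2%, A in 26.96%, T in 25.02% and C in 20.8%. The base before the 5' end was G in 15.01%, below A with 29.3%, C with 29.8% and T with 25.9%. At 29 to 31 nt the following base was T in 28.4% and G in 23.3%.

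Most 5' ends were seen with a single length. Sequences were taken to share a 5' end when their first 20 nt were the same, and a 3' end when their last 20 nt were. The sequences had 755742 different 5' ends, 1.33 sequences per end, and 76.3% (76.2 to 76.4) of the ends had 1 sequence, 14.1% had 2 and 9.59% had 3. Only 277 ends had 4 or more, which takes sequences that differ after base 20. There were 828164 different 3' ends, 1.22 sequences per end, so lengths varied slightly more at a fixed 5' end than at a fixed 3' end. The 29 to 31 nt sequences had 1.51 per 5' end and 1.26 per 3' end, and the mRNA group 1.09 and 1.03.

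The lengths at a 5' end came in all combinations. A length of 27 nt alone was found at 31.4% of the 5' ends, 26 nt alone at 28.7% and 25 nt alone at 16.1%. Of the pairs, 26 with 27 nt had 7.14%, 25 with 26 nt 4.11% and 25 with 27 nt, which skips the middle length, 2.86%. All 3 lengths were found at 9.60%, more than for any pair.

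Of the 755742 5' ends, 205613 also started an unannotated unique sequence of 29 to 31 nt, 27.2% (27.1 to 27.3). They were 47.1% (46.9 to 47.2) of the 436758 5' ends at 29 to 31 nt. By single length, the share was 20.1% at 28 nt, 19.6% at 29 nt, 18.8% at 30 nt, 12.6% at 31 nt, 6.03% at 32 nt and 2.44% at 33 nt. Among shorter sequences it was 13.4% at 24 nt and 4.55% at 20 nt. Outside 25 to 27 nt, no unannotated unique sequence of 20 to 36 nt was found for 61.3% of the 5' ends. In the mRNA group 6.58% (6.51 to 6.66) of the 25 to 27 nt 5' ends recurred at 29 to 31 nt, and these were 18.8% of the mRNA 5' ends at that size.

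The share of matching 5' ends was highest at the same base. Both size classes prefer T first, with 68.6% of the members and 72.3% at 29 to 31 nt. The part of this shared preference in the match was not tested. A 29 to 31 nt sequence started at the very position of 27.2% of the 5' ends, but 1 nt upstream of 18.2% and 1 nt downstream of 17.8%. From 9 nt upstream to 5 nt downstream all other offsets lay between 15.97% and 19.5%. The 3' ends gave a broader profile. A 29 to 31 nt sequence had the same 3' end at 25.5% of the members' 3' ends, while the highest shares lay 3 and 4 nt downstream, with 28.6% and 28.9%, and 9 nt downstream the share was 21.2%. The highest share thus lay at the distance that separates the middles of the size windows.

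**Figure D2:**
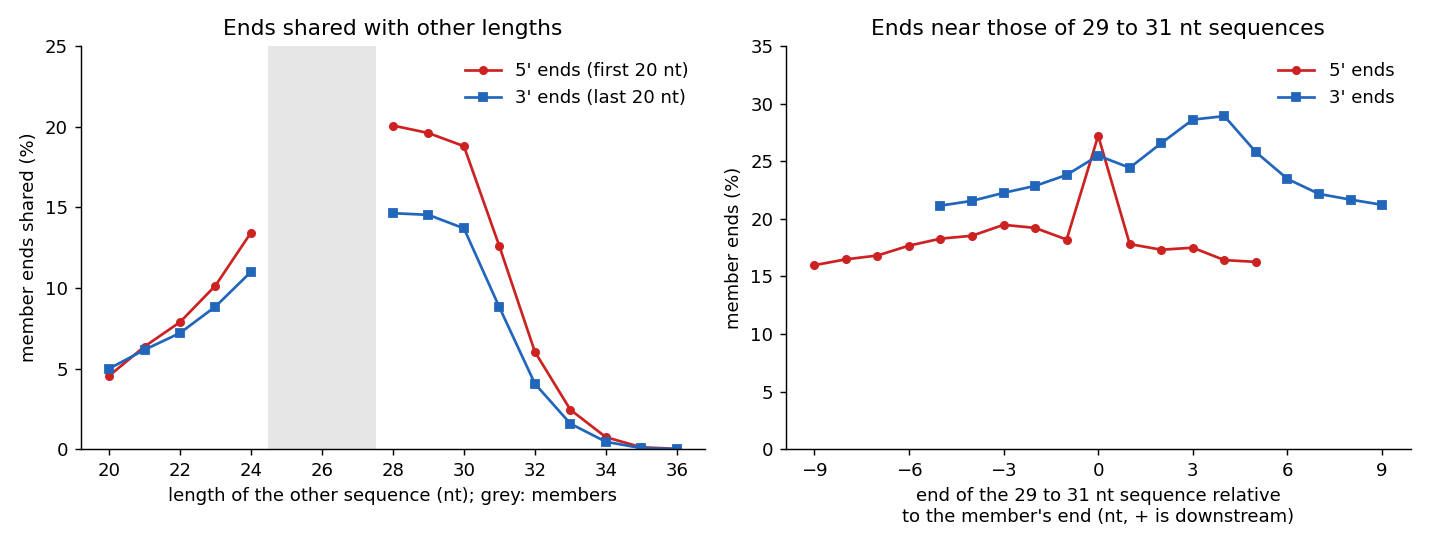
Left, share of the members' 5' ends (circles) and 3' ends (squares) that also belong to an unannotated unique sequence of each other length (x axis, nt). Right, share of the members' ends with an end of a 29 to 31 nt sequence at each offset (x axis, nt). The 5' ends show a single high point of 27.2% at offset 0, and the 3' ends a broad one of 28.9% at 4 nt downstream.

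Recurrence at 29 to 31 nt went with the number of lengths among the 25 to 27 nt sequences. It was 14.6% (14.5 to 14.7) for 5' ends with 1 length, 55.6% (55.3 to 55.9) with 2 and 85.9% (85.7 to 86.2) with all 3. Among single lengths it was 12.9% for 25 nt, 12.4% for 26 nt and 17.4% for 27 nt. Among pairs it was 46.1% for 25 with 26 nt, 56.4% for 25 with 27 nt and 60.7% for 26 with 27 nt. Ends that began with T recurred in 28.3% (28.2 to 28.4), against 24.8% for A, 24.8% for C and 25.2% for G. With no read numbers, the ends could not be compared at equal depth.

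The first base followed the number of lengths in both directions. Here all lengths from 20 to 36 nt of unannotated unique sequences were counted at each 5' end. T was first in 72.7% (72.5 to 72.8) of the ends found at 1 length, in 55.5% at 2 lengths and in 48.3% (47.8 to 48.7) at 3 lengths. It then rose to 55.0% at 4 or 5, 69.7% at 6 or 7 and 87.0% (86.7 to 87.3) at 8 or more. The last group comprised 54894 5' ends, 7.26% of all. A at position 10 moved only between 25.7% and 28.03% over these groups, and A at position 5 between 31.3% and 37.1%, with its highest value again at 8 or more lengths.

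**Figure D3:**
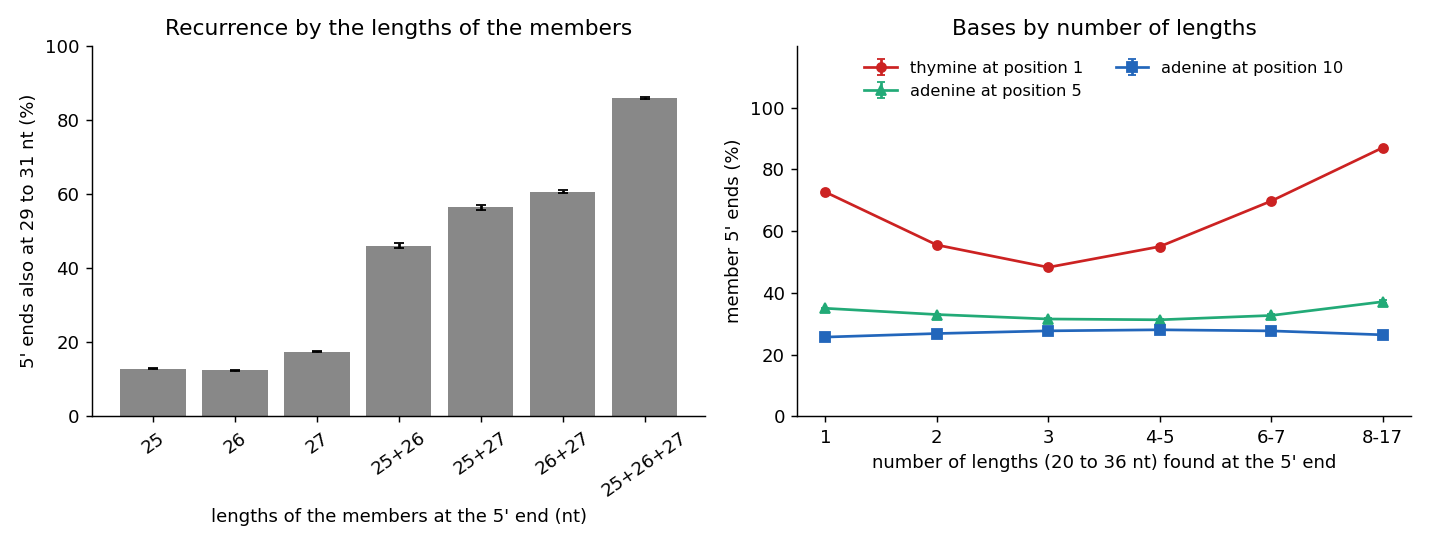
Left, share of 5' ends that recur at 29 to 31 nt (y axis, %) for each combination of lengths (x axis, nt) among the 25 to 27 nt sequences. Right, share of 5' ends with thymine first, adenine at position 5 and adenine at position 10 by the number of lengths found at the end. Whiskers on bars and points are 95% intervals. Recurrence reaches 85.9% where all 3 lengths are present, and thymine first falls to 48.3% at 3 lengths and rises to 87.0% at 8 or more.

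To see where the sequences come from, they were matched to the spliced transcripts of GENCODE M21 (GRCm38), and 185548 had exactly 1 position there, 18.4% (18.3 to 18.5). The share was 18.2% at 29 to 31 nt and 67.7% in the mRNA group. Introns and intergenic DNA outside the exons of GENCODE transcripts were not searched. Below, coding and noncoding refer to the type of the gene, and exons of any of its transcripts counted. Placed and unplaced sequences had T first in 70.5% and 68.2%, and 24.2% and 27.9% of their 5' ends recurred at 29 to 31 nt. Of the placed sequences 41.9% lay on the sense strand of coding exons, 36.7% on that of long noncoding exons, 5.67% on that of other genes only and 15.7% on the antisense strand only. T was first in 78.3% of those on coding exons but in 60.6% of those on long noncoding exons.

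The placed sequences were concentrated in a few places. Runs of 10 kb windows with at least 100 placed sequences each formed 178 loci, which held 58.3% of the placed sequences, and the 12 richest held 26.3%. The 12 loci ranged from 1810 to 13656 sequences with a median of 2347.5. In 10 of them the named gene with most sense sequences was a long noncoding RNA. This class of gene gives rise to the pachytene piRNAs of meiotic cells. Among the 10, CT025671.4 on chromosome 17 accounted for only 45 of the 2504 sequences of its locus, most of which were antisense to annotated exons. The coding gene Ago2 led another locus.

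The richest locus (chromosome 17, windows 27300000 to 27369999) held 13656 sequences, of which 12970 were on the plus strand. Gm49794 (27354111 to 27367492) had 8540 sense sequences and Gm10505 (27325035 to 27344833) 4394. On the minus strand Gm49793 had 369, among them those printed first. T came first in only 47.7% (46.9 to 48.5) of the sequences of this locus, the lowest share of the 12. It also had the most 25 nt sequences, 31.1%, and the most sequences per 5' end, 1.89. For each sequence of 25 to 27 nt it had 0.556 of 29 to 31 nt, the lowest ratio of the 12 loci, whose median was 0.956.

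The locus on chromosome 7 (73770000 to 73839999, 10980 sequences) was divided between the strands, with 7183 on the plus and 3797 on the minus strand. Its genes are neighbours that point away from each other, Gm21269 on the plus strand (73816546 to 73838898, 7126 sense sequences) and Gm10619 on the minus strand (73781429 to 73816503, 3279). Of its 5' ends 60.2% (59.0 to 61.5) recurred at 29 to 31 nt and T was first in 52.8%. The other loci were nearly one-sided, and the median share on the main strand over the 12 was 99.8%.

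The remaining loci were smaller, and T came first in 52.2% to 75.6% of their sequences. Those led by noncoding genes were 1700001L05Rik on chromosome 15 with 3631 sequences (62.2% T first), Gm30132 on chromosome 8 with 3097 (64.2%) and Gm10010 with 9330102E08Rik on chromosome 6 with 3056 (60.1%), of which 935 and 835 were sense to these genes. A locus on chromosome 17 (66180000 to 66199999) had 2504 sequences, 2458 of them on the minus strand, but its sense genes, CT025671.4 and CT025671.3, accounted for 45 and 13. Nearly all others in this locus matched annotated exons in antisense only. Gm21388 on chromosome 3 had 2042, 4933440M02Rik on chromosome 7 had 1982, AC140207.2 on chromosome 18 lay in a locus of 1836 and 1700029M20Rik on chromosome 4 had 1810. Recurrence at 29 to 31 nt had a median of 57.2% over the 12 loci. It was highest at 4933440M02Rik, with 64.1% (61.3 to 66.8).

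**Figure D4:**
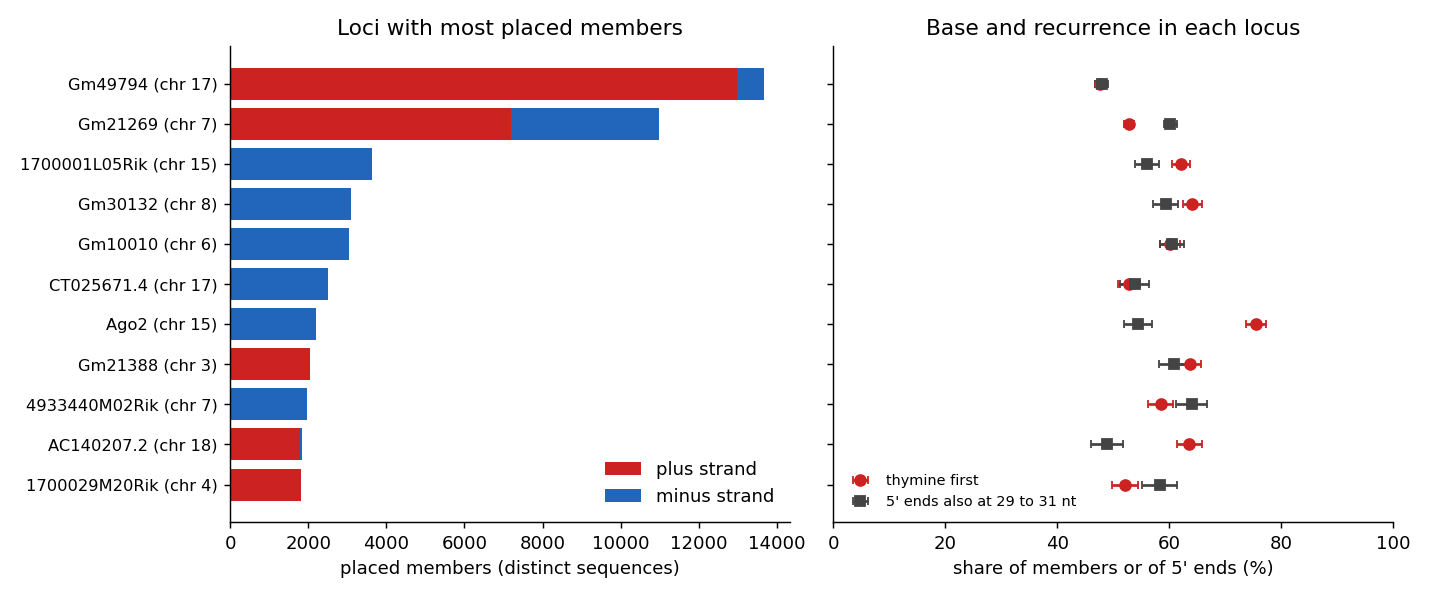
Left, number of placed sequences on the plus and minus strand in 11 of the 12 richest loci, named by the gene with most sense sequences there. CT025671.4 accounts for only 45 of the 2504 sequences of the locus that bears its name. Right, share with thymine first (circles) and share of 5' ends that recur at 29 to 31 nt (squares), with 95% intervals. Thymine first runs from 47.7% in the richest locus to 75.6% at Ago2, and recurrence reaches 64.1% at 4933440M02Rik.

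Outside the 12 loci the same placed sequences looked different. T was first in 75.6% (75.3 to 75.8) elsewhere and in 56.2% (55.7 to 56.6) within them. Of the 5' ends, 16.6% recurred at 29 to 31 nt elsewhere and 54.7% within them, and there were 1.18 and 1.71 sequences per 5' end. A at position 10 had 24.3% and 26.04%. The groups differ in density by their choice, and the part of density in these values was not tested.

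Among noncoding genes the 8 richest held 50.1% of all sense counts, against 16.4% for the 8 richest coding genes. Sense sequences fell on 2411 noncoding and 5216 coding genes, of which 44 and 124 had 100 or more. In the median a noncoding gene had 2 and a coding gene 3. Among the coding genes with most was Ago2, an Argonaute of the miRNA pathway, with 2185 sense and 6 antisense sequences. D10Wsu102e had 1681, the ubiquitin ligase gene Cbl 1615, Nemp1 of the inner nuclear membrane 1601, 1700006A11Rik 1594, the translation repressor gene Eif4ebp2 1258 and Strbp, which encodes an RNA-binding protein of spermatids, 793. These sequences carried no annotation in the list although they match exons of genes in the annotation used here.

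Within single transcripts the preference for T could be set against the bases on offer. On the longest transcript of Gm10505, a 25 to 27 nt sequence started at 71.1% of the T positions and at 35.3% of the others, a ratio of 2.01. In Gm49794 the shares were 56.7% and 27.6%, and in 1700001L05Rik 66.3% and 25.3%. The ratios were larger in some transcripts where a smaller share of positions started a sequence. Ago2 had 28.1% and 4.78% (ratio 5.87), with starts at 11.2% of its positions. D10Wsu102e had 3.07% and 0.337% (ratio 9.12), with starts at 1.13% of its positions. Its transcript was 123179 nt long, against a median of 7738.5 nt over the transcripts examined. The gene spans 83360221 to 83488505 on chromosome 10, so this transcript covers most of it. T made up between 23.1% and 30.8% of the 16 transcripts examined, and the ratio was lowest in 1700006A11Rik, at 1.94, where 41.6% of all positions started a sequence. Because each sequence counts once, a position used often and a position used once weigh the same here.

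The same transcripts show how far the 2 size classes shared their starts. In Gm21269 a 29 to 31 nt sequence started at 60.8% of the positions where a 25 to 27 nt sequence started and at 7.95% of the others. The shares were 64.2% and 20.95% in 4933440M02Rik and 54.6% and 6.87% in Ago2. Shared starts were scarcest in D10Wsu102e, with 10.7% and 0.212%, where both size classes started at a small share of the positions of a long transcript. Over the 16 transcripts the medians were 56.9% and 7.41%.

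Some of the placed sequences matched genes of the piRNA pathway itself. All 22 genes of a list that includes Piwil1, Piwil2, Tdrd1 and Tdrd6 were in the annotation. At least 1 sense sequence was found for 12 of them, 141 in all, with only 1 each for Piwil2, Tdrd7 and Fkbp6. Sense sequences fell on 5216 coding genes, but their share of all annotated genes was not computed. Whether 12 of 22 is particular to the pathway therefore cannot be said. Gtsf1, a zinc finger partner of Piwi proteins, had 39, the helicase gene Tdrd9 32, Exd1 27 and Tdrkh, a Tudor gene needed for trimming, 16. The targeted genes Tdrd1 and Tdrd6 had 0 each. Sequences annotated to an mRNA are outside the members by the rule, so these counts depend on which transcripts the list annotated. Unique mRNA-annotated sequences of the same size numbered 749 on the 22 genes, with 120 on Tdrd6 and 46 on Tdrd1, while Gtsf1 and Tdrd9 had 0. These numbers do not measure expression, and the mutation cannot be checked by them.

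Opposite-strand partners were sought among all placed unique sequences of 24 to 33 nt. The pair shown lies in the richest locus and was picked afterwards. It is the one with the lowest coordinate that has a T-first sequence. In a 10 nt overlap, the partner of such a sequence has A at position 10 by base pairing. Capitals mark the 10 bases by which the 5' ends overlap, on chr17:27318660-27318686 (plus strand) and chr17:27318644-27318669 (minus strand).
Plus strand, 27 nt: TGGCCTTTTTgcagtctctagagcata
Minus strand, 26 nt: AAAAAGGCCAggagctgcaggaaagc

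Such 10 nt overlaps were rare but more frequent than overlaps of other lengths. Of 144068 placed 5' ends, 2.23% (2.16 to 2.31) had a partner at 10 nt, against a mean of 1.48% (SD 0.123) over the other 19 overlaps from 1 to 20 nt, whose highest value was 1.77%. The ratio was 1.51. Without the 12 richest loci the shares were 1.28% and 0.730%. The 29 to 31 nt sequences had 3.91% against 2.36% (ratio 1.66) and the mRNA group 0.615% against 0.385% (ratio 1.60). Their highest values at other overlaps were 2.61% and 0.534%, so the mRNA group stood little above its next highest overlap. The value at 10 nt was the highest of the 20 overlaps in all 3 groups.

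No spacing from one sequence to the next stood out on the same strand. In phased cutting, 1 cut makes both the 3' end of a piRNA and the 5' end of the next. Before trimming, the next 5' end would then lie 1 nt after the 3' end. Trimmed 3' ends no longer mark the cut, so these values cannot decide whether cutting was phased. Of 159010 placed 3' ends, 13.8% (13.6 to 13.9) were followed by a 25 to 27 nt sequence at 1 nt, and the mean over distances from 2 to 20 nt was also 13.8% (SD 0.169). With 29 to 31 nt sequences as the followers both values were 10.7%. Without the 12 richest loci 7.48% were followed at 1 nt and 7.59% on average at other distances.

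**Figure D5:**
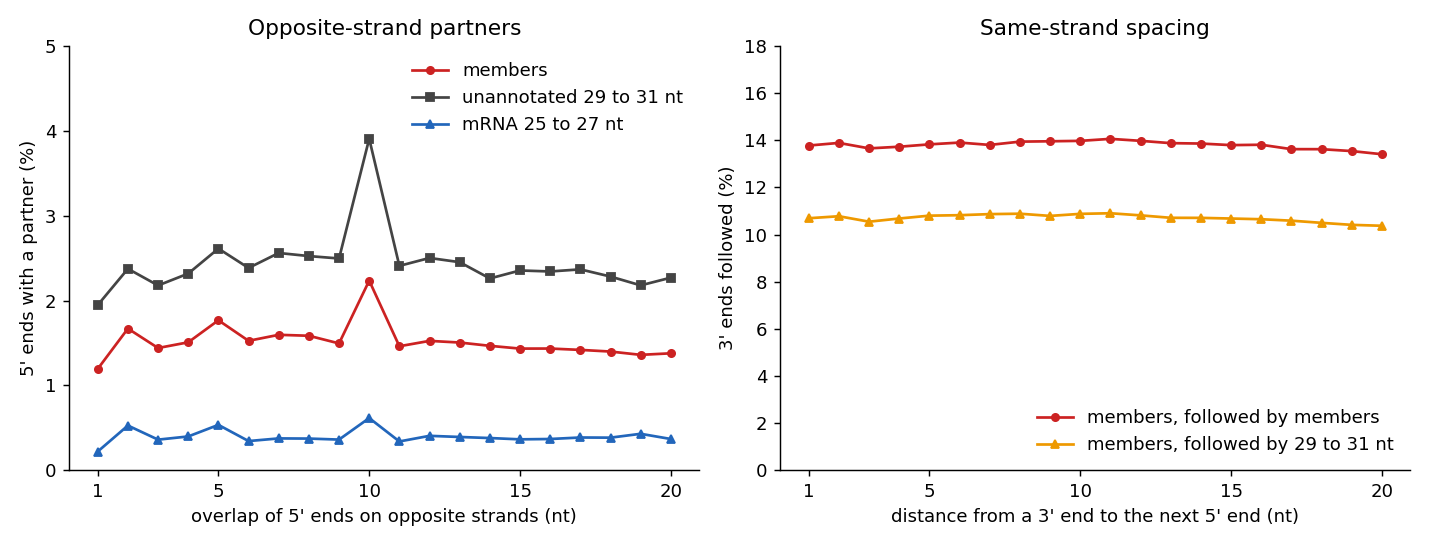
Left, share of 5' ends with a 5' end on the opposite strand (y axis, %) by the overlap in nt, for the 25 to 27 nt sequences, the 29 to 31 nt sequences and the mRNA group. Right, share of 3' ends followed on the same strand by a 5' end at each distance in nt. The members stand at 2.23% at 10 nt, above every other overlap, while the share followed at 1 nt, 13.8%, equals the mean of the other distances.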

How the data were processed

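Per the labels, RNA of 19 to 33 nt from 8 testis libraries was ligated to linkers and amplified. The authors deposited 1 table of distinct sequences with a map number and a final annotation; neither a score nor a count per library is among the 3 columns, and 0 columns name a library. Aligner, genome build, annotation sources and read minimum are not given in the sources used here. The members, gene lists and measures were chosen with earlier results of these data known.

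All 3974508 unique sequences of 24 to 33 nt were matched exactly, over their full length, to both strands of 141767 GENCODE M21 transcripts (GRCm38), and 1062210 with 1 position were placed through the exons. A genome sequence was not used here, so windows hold exonic positions only. Coordinates are the matched GRCm38 positions; the map number refers to the authors' build. Loci (the 12 richest) and genes (8 noncoding and 8 coding) were named by number of members; 1 gene and its locus are not reported here. In 2 of the 3 loci only the shortest and longest of the sequences at the chosen 5' end are printed. Numbers of lengths per end, 3' end offsets, transcript positions, chains and the opposite-strand pair were added after seeing the data. Functions were tested on simulated sequences. Python 3.11.15, numpy 2.4.6, pandas 2.3.3 and scipy 1.17.1 were used. Intervals cover counting error only.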

Additional observations from a re-analysis of the deposited data

How the results depend on the processing

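T first was 67.6% at 24 to 28 nt, 68.0% with each 5' end counted once and 69.3% without the 12 richest loci. Recurrence at 29 to 31 nt was 27.3% with all sequences of that size and 26.1% without these loci. Without them the 10 nt overlap stood at 1.75 times the other overlaps, the 1 nt spacing at 0.986 times the other distances and T after the 3' end at 24.8%. Windows of 5 kb put 23.7% of placed sequences in the 12 richest loci, and a minimum of 50 sequences per window gave 373 loci in place of 178. Counting either strand put 40.4% on long noncoding exons. Ends defined by 18 or 24 nt left the sequences per end and the recurrence within their intervals. No paired analysis was possible because no column of the list names a library. The list has no read numbers, so neither levels nor the effect of depth on any share can be given.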

Other observations

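Without any annotation, the 25 to 27 nt sequences could be joined where they share 20 bases on the same strand. This gave 409274 chains. Of the sequences, 33.0% were alone in their chain and 48.2% lay in 12317 chains of at least 10, while 962 chains of at least 100 held 15.4%. The 3 largest chains had 818, 721 and 682 sequences over 520, 499 and 480 nt. Of all sequences, 6.65% (6.60 to 6.70) shared 20 bases with the reverse complement of another.

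The 5' ends also reached past the labelled size limit of 33 nt. Of the members' 5' ends 6294 (0.833%) started an unannotated unique sequence of 34 to 36 nt. At 34 nt, 73.6% of the 5' ends at that length were shared with the 25 to 27 nt sequences, against 56.4% at 29 nt.

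Of all the members' 5' ends, 0.239% also started an annotated sequence of 20 to 36 nt, and 0.330% a multi-mapping unannotated one of 20 to 24 nt. Most of the members' 5' ends, 57.6%, were found at only 1 length of unannotated unique sequences from 20 to 36 nt.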
